A study of Mus musculus with 2 samples.

Results

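The ERK feedback regulators are 10 genes of 4 families that are switched on by growth factor signalling and, for the most part, dampen it: the phosphatases Dusp4, Dusp5 and Dusp6, the Sprouty genes Spry1, Spry2 and Spry4, the Sprouty-related genes Spred1 and Spred2, and the ETS transcription factors Etv4 and Etv5. They were taken by gene symbol, and all 10 were found among 22072 genes in the lung transcriptomes of 2 mouse genotypes. Both groups were homozygous for floxed Foxf1 (Foxf1 fl/fl) on the C57/BL6 background. Per the labels, the control group carried no further allele, and the knockout group also carried Pdgfb-iCreER, an inducible Cre recombinase under the promoter of Pdgfb, which is active in endothelial cells. Lung RNA of several mice was combined into 1 library for each genotype. The sources used here do not give the age or number of the mice, or how Cre was induced. Since the controls lacked Cre, effects of the transgene and of Foxf1 loss cannot be told apart, and Cre acts in endothelium while the RNA came from whole lung.

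Receptor tyrosine kinases such as the FGF, VEGF and EGF receptors signal through Ras, Raf and MEK to the kinase ERK. Active ERK induces its own inhibitors: the DUSP phosphatases remove the activating phosphates from ERK, and Sprouty and Spred proteins act upstream, on the step from the receptor to Ras and Raf. Etv4 and Etv5 are transcription factors of the same response and are known as targets of FGF signalling in the epithelium of the developing lung. The level of these transcripts is often read as a record of recent ERK activity.

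The values are FPKM, which correct the fragments of a transcript for its length and for library size, so that levels can be compared between genes. About 13.2 M reads fell on transcripts in the control library and 10.4 M in the knockout library. A fold is the plain ratio of FPKM values, and the range after it is the 95% interval from counting error alone. With 1 library per genotype there is no replicate check and no test of the genotype, and differences between mice or library preparations are not in these intervals. Genes were called higher or lower at a fold of 1.5 on the scale of log2(FPKM + 1), among the 12929 genes whose mean FPKM was at least 1, called the genes tested. Because of the pseudocount of 1, this scale understates the fold of rare genes, so that a plain ratio can pass 1.5 without a call. Within a list, highest and lowest mean this log2 difference, and most abundant means the highest mean FPKM of both pools. Where values come in pairs, the control pool comes first. Foxf1, listed as Foxf1a, had an FPKM of 72.1 (control) and 15.7 (knockout), a 4.59-fold lower value (3.96 to 5.33). The lung markers Sftpc (15925 and 13793 FPKM) and Scgb1a1 (35265 and 22774 FPKM) were abundant in both pools.

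Promoter sequence gives context for the members, since FOXF1, the ETS factors and the immediate early factors of the ERK response bind DNA. RefSeq windows of 300 bases around a start site (build GRCm38.p6, 250 bases before it and 50 after) were at hand for 7 members, Etv5 with 2 windows. They were searched on both strands for 5 motifs: the ETS core CCGGAA, the forkhead core TAAACA, the cAMP response element core TGACG, the AP-1 site TGANTCA and the CArG box of serum response factor. The 3 stretches of 250 bases shown are those in which a match lies before the start site. Matches are in capitals, and each stretch is written 5′ to 3′ along the gene.
Dusp5 (chr19:53528895-53529144, strand plus): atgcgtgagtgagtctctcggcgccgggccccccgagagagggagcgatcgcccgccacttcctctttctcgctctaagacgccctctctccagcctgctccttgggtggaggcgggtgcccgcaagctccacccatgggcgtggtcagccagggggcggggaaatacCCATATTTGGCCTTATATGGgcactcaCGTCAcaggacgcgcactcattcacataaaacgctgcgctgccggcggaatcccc
Spred2 (chr11:19924192-19924441, strand plus): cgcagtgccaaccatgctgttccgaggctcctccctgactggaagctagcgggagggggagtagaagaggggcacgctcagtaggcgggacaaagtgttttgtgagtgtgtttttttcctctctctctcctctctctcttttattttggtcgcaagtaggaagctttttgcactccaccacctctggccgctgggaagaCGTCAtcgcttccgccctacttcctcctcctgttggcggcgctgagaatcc
Etv5 (chr16:22439571-22439820, strand minus): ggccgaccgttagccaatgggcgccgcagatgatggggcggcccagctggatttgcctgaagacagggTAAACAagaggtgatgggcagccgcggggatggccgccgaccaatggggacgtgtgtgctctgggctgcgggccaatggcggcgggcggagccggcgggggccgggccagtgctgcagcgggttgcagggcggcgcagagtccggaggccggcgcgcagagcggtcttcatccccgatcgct

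Dusp5 held CArG boxes that start 82 and 72 bases before the start site, side by side in the capitals, and the cAMP element core 55 bases before it. CArG boxes occurred in 1.63% of all 32851 windows of this length, and Dusp5 was the 1 member of the 7 with such a box. The cAMP element core was also found in Spred2, 51 bases before the start, and in 20.8% of all windows. The forkhead core was found in 1 of the 2 windows of Etv5, 182 bases before the start, and in 13.4% of all windows. The ETS core was found only in Spry2, at base 34 of the transcript, and in 14.9% of all windows. The AP-1 site, present in 7.81% of all windows, had no match in these 8 windows. A match is a run of letters and not a measured binding site.

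The summed level of the feedback regulators was close between the pools, with Spry4 and the rare Etv4 standing higher in the knockout pool and Spred2 lowest. Their summed FPKM was 178 (control) and 180 (knockout). Of the 9 members that reached this minimum, 1 was at least 1.5-fold higher (Spry4) and 0 were at least 1.5-fold lower. The background over all genes tested was 9.41% higher and 4.63% lower, so 1 of 9 lies near it. The median log2 ratio of the 9 members was 0.13 against 0.05 for all genes tested, and 5 lay above equality and 4 below. The sign of the median rests on the rarer members: over members with a mean FPKM of 5 or more it was -0.16. The counting interval lay above equality for 4 of the 10 members and below it for 4, and it included equality for 2. Over all genes tested the interval lay above equality for 33.3% and below for 21.9%. The 4 members above include Etv4, which is not among the genes tested. They also include Spred1, whose interval included equality under the 4 other scalings. In whole-lung RNA, fewer cells of a type and less RNA per cell cannot be told apart.

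**Figure D1:**
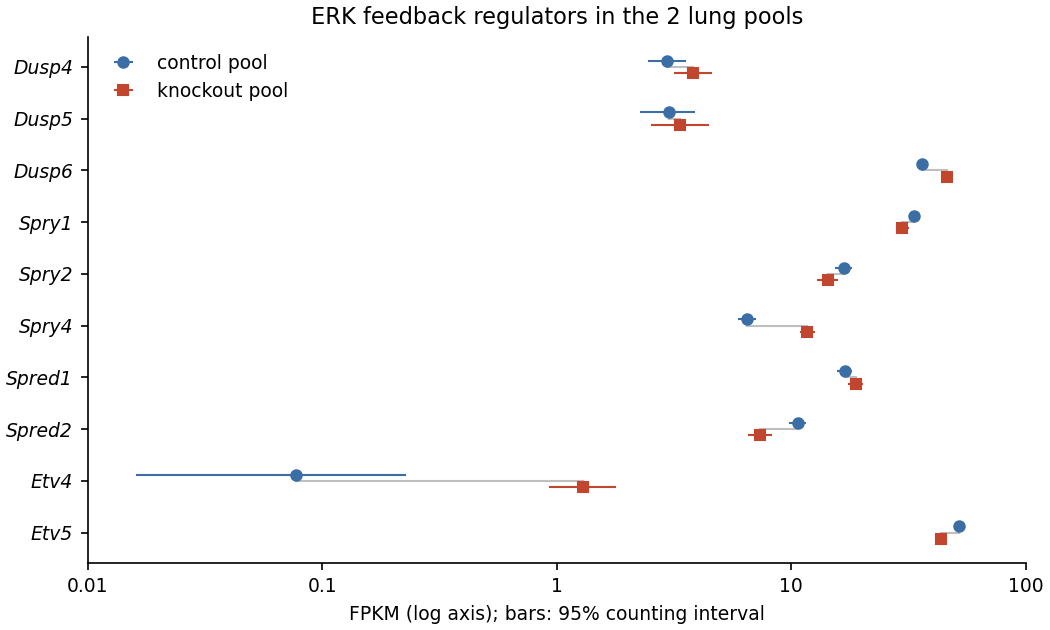
FPKM of the 10 members (log axis) in the control pool (circles) and the knockout pool (squares), 1 library each, with bars for the 95% counting interval. Spry4 moves from 6.48 to 11.7 and Etv4 from 0.0771 to 1.30. The other members differ less between the pools, from 1.44-fold lower (Spred2) to 1.29-fold higher (Dusp4) in the knockout pool.

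The levels spanned a wide range, and their order was nearly the same in both libraries. In the control pool Etv5 was the most abundant member, at 51.7 FPKM, followed by Dusp6 at 36.1 and Spry1 at 33.3. In the knockout pool Dusp6 led with 46.1 FPKM, followed by Etv5 at 43.3 and Spry1 at 29.7. Spred1 and Spry2 followed in both, at 16.9 and 16.7 FPKM among controls, which did not differ beyond counting error, and at 18.8 and 14.3 FPKM in the knockout pool. Spred2 (10.7 FPKM) stood above Spry4 (6.48 FPKM) in the control pool, and this order was turned in the knockout pool, at 7.38 and 11.7 FPKM. Dusp5 and Dusp4 were near 3 FPKM in the control pool, with overlapping intervals (2.27 to 3.88 and 2.44 to 3.54 FPKM). Etv4 was the lowest member in both pools. By mean FPKM, Etv5 lay above 90.1% of the genes tested and Dusp6 above 88.5%, while Dusp4 and Dusp5 lay above only 20.0% and 18.7%.

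The 3 phosphatases all had higher values in the knockout pool, by small margins. Dusp6 encodes a cytoplasmic phosphatase that is selective for ERK, and its record is on chromosome 10 from 98725865 to 98730123 (mm9). Its FPKM was 36.1 (control) and 46.1 (knockout), from about 1661 and 1646 reads. The ratio was 1.28 (1.19 to 1.37), above counting error and under the fold of 1.5. Dusp6 made up 85.8% of the summed FPKM of the phosphatases (control) and 86.5% (knockout).

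Dusp4, which encodes a nuclear phosphatase of ERK and related kinases (chromosome 8, 35870664 to 35882948, mm9), stood at 2.95 FPKM (control) and 3.82 FPKM (knockout). With about 118 reads in each library, its ratio of 1.29 (0.991 to 1.68) included equality. Dusp5 encodes a nuclear phosphatase selective for ERK (chromosome 19, 53603808 to 53615812, mm9), and its FPKM was 3.0 and 3.36. Its ratio was 1.12 (0.759 to 1.68), from about 57 and 50 reads, so that a difference of this size was not detectable at this depth. The Dusp5 record has 1155 bases, which equals the coding length in GENCODE vM21, so its value rests on coding sequence alone. The other 9 records exceed the coding length of their genes by 875 to 3687 bases.

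The Sprouty genes went different ways. Spry4 was the member with the highest ratio among those tested. Its record lies on chromosome 18 from 38745919 to 38760922 (mm9), and its FPKM was 6.48 (control) and 11.7 (knockout), from about 489 and 686 reads. The ratio was 1.81 (1.61 to 2.04), and its log2 ratio of 0.77 exceeded that of 94.2% of the genes tested. Spry1, on chromosome 3 from 37538872 to 37543521 (mm9), had 33.3 FPKM (control) and 29.7 FPKM (knockout), 1.12-fold lower (1.03 to 1.22). Spry2, on chromosome 14 from 106291164 to 106296036 (mm9), had 16.7 and 14.3 FPKM, 1.17-fold lower (1.03 to 1.34). The interval of Spry4 did not overlap those of Spry1 and Spry2. All 3 genes encode inhibitors that act between receptor and Ras or Raf. Their summed FPKM was 56.5 (control) and 55.7 (knockout), while the share of Spry4 in that sum was 11.5% and 21.1%.

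The Spred genes, whose proteins bind the Ras inhibitor neurofibromin and bring it to the membrane, also differed from each other. Spred2 (chromosome 11, 19824445 to 19922600, mm9) was the lowest member by ratio. Its FPKM was 10.7 (control) and 7.38 (knockout), 1.44-fold lower (1.25 to 1.68), from about 504 and 270 reads. Its log2 ratio of -0.48 exceeded that of 7.02% of the genes tested. Spred1 (chromosome 2, 116947186 to 117005072, mm9) had 16.9 and 18.8 FPKM, a ratio of 1.11 (1.01 to 1.23). Under the 4 other scalings tried, the interval of Spred1 included equality, with ratios from 1.05 to 1.07. The share of Spred1 in the sum of both genes was 61.3% (control) and 71.8% (knockout).

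**Figure D2:**
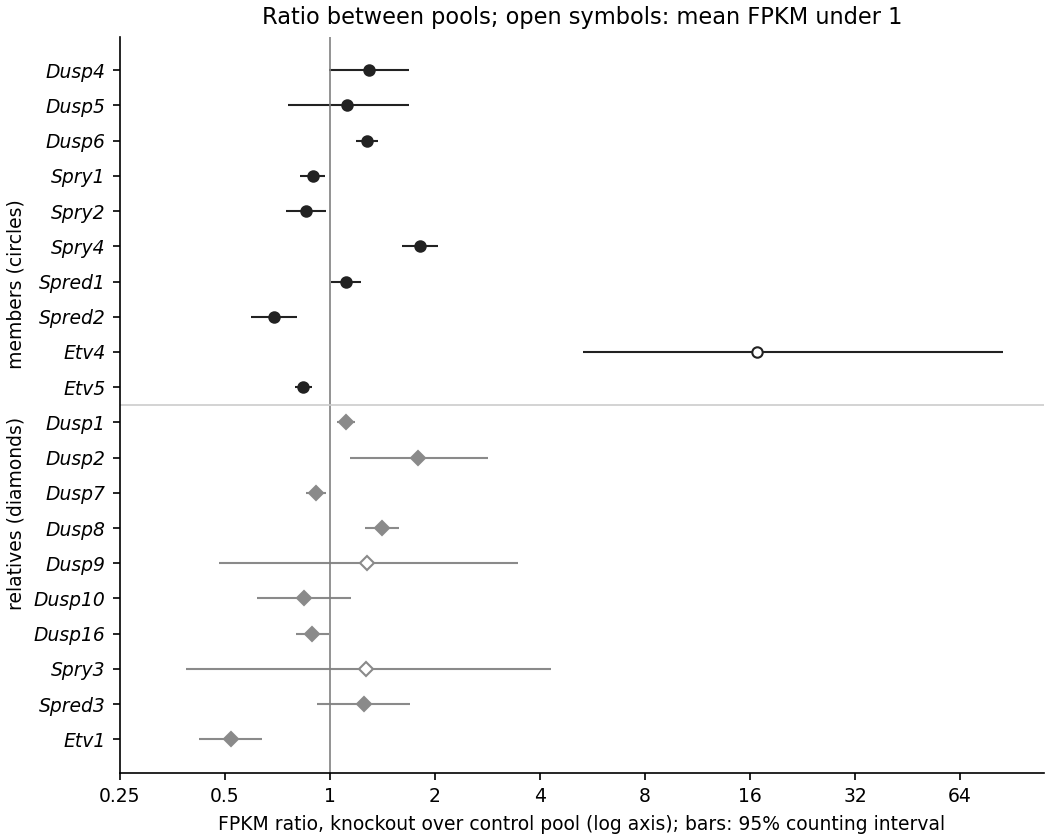
FPKM ratio of the knockout over the control pool (log axis) for the 10 members (circles) and their 10 relatives (diamonds), with 95% counting intervals; open symbols mark a mean FPKM under 1. Spry4 at 1.81 and Etv4 at 16.8 lie farthest above equality among the members and Spred2 at 0.693 farthest below.

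The ETS genes held the most abundant member of the control pool, Etv5, and the least abundant member of both pools, Etv4. Etv4 (chromosome 11, 101631056 to 101646624, mm9) was nearly unread in the control pool, at 0.0771 FPKM from about 3 reads, and had 1.30 FPKM from about 39 reads in the knockout pool. The ratio was 16.8, with a wide interval of 5.33 to 84.9. The mean FPKM of Etv4 was 0.687, under the minimum of 1, so it is not in the counts of members called. Its difference on the log2(FPKM + 1) scale was 1.09. Of 235 genes with about 3 reads in the control library, a set chosen after the values were seen, Etv4 was the 1 gene (0.426%) with as many reads as it has in the knockout library. Both limits were taken from the reads of Etv4 itself, so it is always counted and the share could not be lower. The share is a description and no test, and it shows only that the other genes of the set had fewer reads in the knockout library. No other record of the files overlapped Etv4. Its nearest tested neighbours were Dhx8, 2.38 kb away, at 7.48 and 7.03 FPKM, and Meox1, 92.2 kb away, at 5.23 and 7.61 FPKM. The genes tested whose levels in the 2 libraries came closest to those of Etv4 were Serpina1d (0.246 and 1.86 FPKM), Gxylt2 (0.328 and 1.70 FPKM) and Ercc6l (0.353 and 1.71 FPKM), at distances of 0.38 to 0.41 on the log2(FPKM + 1) scale over these libraries.

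Etv5 is expressed in alveolar type 2 cells, the surfactant-producing cells of the alveolus, and is known to be needed for their identity. Its record lies on chromosome 16 from 22381386 to 22439643 (mm9). Its FPKM was 51.7 (control) and 43.3 (knockout), 1.19-fold lower (1.13 to 1.26), from about 3250 and 2113 reads. The 9 alveolar type 2 markers examined had a summed FPKM of 20119 and 17354, a ratio of 0.863, beside a ratio of 0.839 for Etv5. Most of these sums came from Sftpc, at 15925 and 13793 FPKM. The median log2 ratio of the 9 markers was -0.08, beside -0.25 for Etv5. Of these markers 4 lay above and 5 below equality, 0 passed a fold of 1.5 and none was at 0 in either pool. Under each of the 4 other scalings 1 of them was at least 1.5-fold lower, and the lowest, the surfactant protein gene Sftpa1, had 1207 and 808 FPKM. The part of these cells in the value of Etv5 was not tested.

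**Figure D3:**
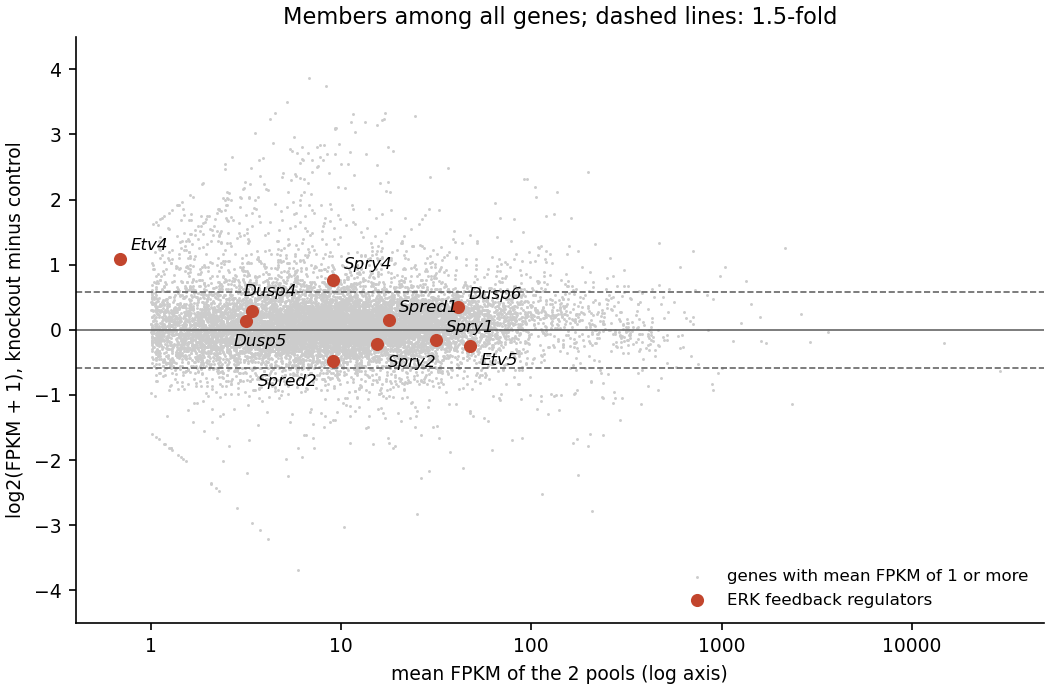
Difference of log2(FPKM + 1), knockout minus control, against mean FPKM (log axis) for the 12929 genes tested (grey, 4 genes outside the plotted range) and the 10 members (red). Spry4, at 0.77, lies above the 1.5-fold line, Etv4 lies left of the minimum, and the other members lie between the dashed lines.

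The 10 close relatives of these families gave a similar picture. Of the 8 relatives tested, 0 were higher by a fold of 1.5 and 1 was lower, beside the background of 9.41% and 4.63%. Their median log2 ratio was 0.01, which was -0.08 to -0.04 under the other scalings. The lower gene was Etv1, the remaining member of the PEA3 group with Etv4 and Etv5, at 4.90 and 2.54 FPKM, 1.93-fold lower (1.57 to 2.38). The 3 genes of this ETS group thus stood on different sides of equality. With the more abundant of its 2 transcripts alone, the log2 ratio of Etv1 was -1.23 instead of -0.74. Dusp2, a phosphatase gene of immune cells, had 1.34 and 2.40 FPKM, a ratio of 1.79 (1.14 to 2.83), but did not reach the fold on the log2(FPKM + 1) scale. Dusp8, whose product acts mainly on JNK and p38, had 7.22 and 10.2 FPKM.

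The immediate early gene Dusp1 was the most abundant of the DUSP genes examined here, at 69.8 and 77.6 FPKM. Dusp7, a close relative of Dusp6, had 41.4 and 37.8 FPKM, 1.10-fold lower (1.03 to 1.17). The stress kinase phosphatase genes Dusp10 and Dusp16 had 2.47 and 2.09 FPKM and 10 and 8.90 FPKM. Spred3 had 1.33 and 1.67 FPKM. Dusp9 (0.217 and 0.279 FPKM) and Spry3 (0.10 and 0.127 FPKM) were under the minimum.

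None of the other inhibitors of the pathway was called at the fold of 1.5 on the log2(FPKM + 1) scale. Of 15 such genes, all tested, 0 were at least 1.5-fold higher and 0 lower. At the background of 9.41% higher and 4.63% lower, few of 15 genes would be called. Of the 15, 10 lay below equality, and the median log2 ratio was -0.17. Errfi1, an inhibitor of the EGF receptor, was lowest on that scale, at 72.1 and 50 FPKM, 1.44-fold lower (1.36 to 1.52). The ubiquitin ligase gene Cbl followed on that scale, at 2.0 and 1.13 FPKM, but was the lower of both by plain ratio, 1.77-fold lower (1.34 to 2.37). Erf, an ETS repressor that ERK inactivates, was highest, at 9.35 and 13.5 FPKM, and the repressor gene Cic had 16 and 18.4 FPKM. Pebp1, which encodes the Raf kinase inhibitor protein, was the most abundant, at 87.9 and 101 FPKM.

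Genes that ERK is known to induce, other than the feedback regulators, had mostly higher values in the knockout pool. Of 14 tested, 13 lay above equality and 7 were at least 1.5-fold higher and 0 lower, beside the background of 9.41% and 4.63%, and their median log2 ratio was 0.59. The count was 4 or 5 under the other scalings and 4 with a pseudocount of 3. Since the list was chosen with earlier results of these data known, the count beside the background is a description and no test. Egr1, an immediate early transcription factor gene, had 6.13 and 19.2 FPKM, a ratio of 3.13 (2.74 to 3.59). Emp1, a membrane protein gene and the most abundant of the list, had 124 and 310 FPKM. The lowest were Ier3, at 85.4 and 83.0 FPKM, and Epha4, at 2.99 and 3.17 FPKM. Proliferation genes moved in the same direction: all 8 examined were at least 1.5-fold higher. Their median log2 ratio was 2.85, and it was 2.13 to 3.45 under the alternative settings. Their summed FPKM was 59.5 and 240, of which Pcna, the most abundant, gave 45.8 and 93.3 FPKM. Pcna had the lowest ratio of the 8, at 2.04 (1.88 to 2.21), and Mcm5 the next lowest, at 4.72 (3.97 to 5.61). The part of proliferation in the values of the ERK response genes was not tested.

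**Figure D4:**
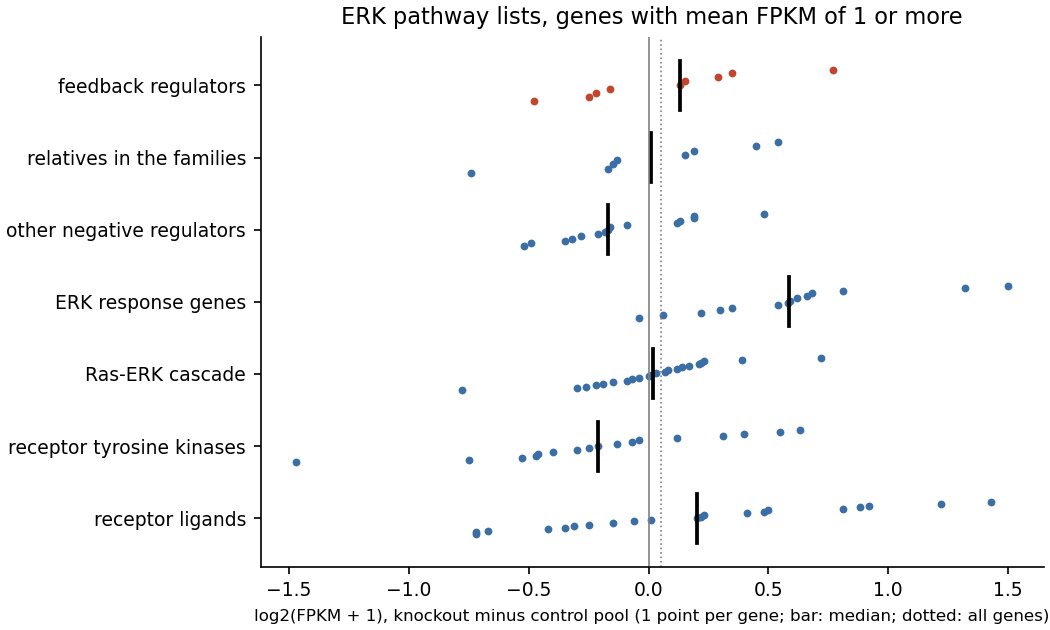
Difference of log2(FPKM + 1), knockout minus control, for tested genes of 7 lists of the ERK pathway (1 point per gene, bar at the median, dotted line at the median of all genes, 0.05). The ERK response genes have a median of 0.59, and the feedback regulators, at 0.13, lie among the other lists. All lists were chosen with earlier results of these data known.

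In the kinase cascade itself 1 gene passed the fold in each direction. Of 22 genes from Ras and its adaptors to ERK and its substrate kinases, 1 was at least 1.5-fold higher and 1 lower. These shares of 4.55% each stand beside the background of 9.41% higher and 4.63% lower. The median log2 ratio of the 22 genes was 0.02, and it was negative (-0.06 to -0.03) under the other scalings. The higher gene was Rps6ka3 (11.0 and 18.7 FPKM) and the lower was Rps6ka1 (23.1 and 13.0 FPKM), both encoding RSK kinases activated by ERK. Map2k2, which encodes MEK2, had 21.7 and 28.7 FPKM, and Sos2, an exchange factor gene for Ras, 12.7 and 10.1 FPKM. Mapk3, which encodes ERK1, was the most abundant, at 133 and 146 FPKM.

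Upstream, 17 receptor tyrosine kinase genes had a median log2 ratio of -0.21. Of these 1 was at least 1.5-fold higher and 2 lower (5.88% and 11.8%), beside the background of 9.41% and 4.63%. Under the 4 other scalings 0 were higher and 2 or 3 were lower. The VEGF receptor gene Kdr was highest and, by the mean of both pools, most abundant, at 65.8 and 103 FPKM, while Tek led among controls, at 74.3 and 51.2 FPKM. The next highest was Flt4, at 11.0 and 16.6 FPKM. The stem cell factor receptor gene Kit was lowest, at 47.3 and 16.4 FPKM, 2.89-fold lower (2.70 to 3.09), followed by Erbb3, at 12.4 and 6.97 FPKM. Of 21 ligand genes tested, 5 were at least 1.5-fold higher and 3 lower, or 23.8% and 14.3% beside the same background. Their median log2 ratio was 0.20. Since the lists were chosen with earlier results of these data known, these shares are a description and no test. Pdgfb was highest, at 35.4 and 97.3 FPKM. The Cre transgene is named for this gene, and whether it adds Pdgfb reads was not tested. Hbegf, an EGF receptor ligand gene, had 17.9 and 43.0 FPKM. The lowest on the log2(FPKM + 1) scale were Kitl, the ligand gene of Kit, at 66.1 and 39.6 FPKM, and Fgf1, at 71.7 and 43.1 FPKM. The plain ratio of Fgf7 was slightly lower, at 0.591 against 0.599 for Kitl and 0.600 for Fgf1. Vegfa was the most abundant, at 305 and 256 FPKM.

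Markers of lung cell types differed between the pools, and their part in the values of the members was not tested. No marker examined was at 0 in either pool. Summed FPKM was lower in the knockout pool for 5 club cell markers (40591 and 25463), 7 ciliated cell markers (672 and 398) and 7 alveolar type 1 markers (3051 and 2439). It was higher for 6 smooth muscle markers (195 and 401), 5 mesothelial markers (137 and 223), 7 macrophage markers (107 and 176) and 6 neutrophil markers (58.8 and 87.1). Some markers went against their sum: 2 alveolar type 1 markers lay above equality, and 2 macrophage markers and 1 neutrophil marker below. Of the macrophage markers 3 were at least 1.5-fold higher and 1 lower, Siglec5 (5.35 and 2.76 FPKM). The 7 lymphocyte markers had 44.1 and 48.3 FPKM. The sum of 8 fibroblast markers was 565 and 856 FPKM, but 5 lay above equality and 3 below, and the 3 at least 1.5-fold higher were the collagen genes Col1a1 (43.4 and 113 FPKM), Col1a2 (77.7 and 175 FPKM) and Col3a1 (91.2 and 223 FPKM). The fibroblast markers Dcn (66.3 and 50.6 FPKM), Tcf21 (59.6 and 55.9 FPKM) and Npnt (171 and 168 FPKM) were not higher. The sum of 10 endothelial markers was 1335 and 1431 FPKM, with 5 above equality and 5 below. Of these 2 were at least 1.5-fold higher, Emcn (30 and 153 FPKM) and Kdr, a count that was 1 under each of the 4 other scalings, and 2 were lower, Cldn5 (263 and 150 FPKM) and Erg (30.6 and 17.8 FPKM). By the mean of both pools, the most abundant markers were Scgb1a1 (club), Sec14l3 (ciliated), Ager (alveolar type 1), Tagln (smooth muscle), Npnt (fibroblast), Krt19 (mesothelial), C1qb (macrophage), S100a8 (neutrophil), Egfl7 (endothelial) and Cd79b (lymphocyte). In single pools other markers led 4 of these lists: Cldn5, Csf1r and Cd79a among controls, and Col3a1 in the knockout pool. Of 10 housekeeping genes, 3 were at least 1.5-fold higher and 0 lower, with a median log2 ratio of 0.28, and Actb, the most abundant of them, had 1000 and 1686 FPKM. The background for the counts of markers and housekeeping genes called was 9.41% higher and 4.63% lower.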

How the data were processed

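Whole-lung RNA was sequenced in 1 pooled library for each of 2 genotypes, and groups follow the genotype labels. The authors deposited FPKM values for 28107 RefSeq transcripts per library. Per the file headers, the authors also give coverage, the aligned depth per base, which is not scaled to the library. Per the submitters' processing notes, the build was mm9 and DESeq was among the tools. For the aligner, the quantification tool and the use of DESeq, nothing was found (not given in the sources used here). FPKM depends on the total of a library, so abundant transcripts can shift all other values.

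FPKM was summed over the transcripts of a symbol, and each member had 1 transcript. FPKM values under 1e-06 were set to 0. Printed starts count from 1, because end minus start gave the length in 3284 records and was 1 short of it in 0. The product of coverage and length (30 to 70 bases, single-transcript genes with 1 read) had a median of 47.5 bases in the control and 47.6 in the knockout library, taken as the bases of 1 read. Intervals of ratios are exact conditional (Clopper-Pearson) intervals on these approximate reads, and intervals of single FPKM values are exact Poisson intervals. Both cover counting error only. The intervals of ratios were tested on simulated Poisson counts, and those of single values were not. The simulation did not test the approximation of reads. No p-values were computed. Alternatives were pseudocounts of 0.1 and 3, a minimum mean FPKM of 5 or none, 4 other scalings, the most abundant transcript alone and records with status OK. Python 3.11.15, numpy 2.4.6, pandas 2.3.3 and scipy 1.17.1 were used.

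The members and lists were chosen with earlier results of these data known. The text names all members and their 10 relatives, Foxf1, and the highest 2, lowest 2 and most abundant tested gene of each other pathway list. Of each cell type list it names the most abundant marker. Other markers named were chosen after their values were seen.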

Additional observations from a re-analysis of the deposited data

How the results depend on the processing

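All 10 members kept the sign of their log2 ratio under the 10 alternative settings named in the processing. Only the 4 scalings could have changed a sign, since a pseudocount cannot. The settings of minimum, transcript and status left the value of every member unchanged. Of the 100 values, which include those unchanged ones, 3 lay outside the counting interval of the value reported, taken to the log2(FPKM + 1) scale. These were Etv4 with a pseudocount of 0.1, at 2.98, whose plain ratio of 16.8 is larger still, and Etv5 under 2 scalings, at -0.33 and -0.34. The 4 scalings moved log2 ratios by -0.09 to -0.05. Without a minimum, 2 members were at least 1.5-fold higher, since Etv4 then counts. By plain FPKM ratio with neither pseudocount nor minimum, a setting chosen after seeing the data, 2 members were higher as well, with a background of 15.7% higher and 10.9% lower. With a minimum mean FPKM of 5, the median log2 ratio of the members was -0.16, since Dusp4 and Dusp5 then drop out. Among the lists, 1 of the other inhibitors, Cbl, was at least 1.5-fold lower with a pseudocount of 0.1. Under 2 scalings 1 was lower as well, but it was Errfi1. Etv1 was not called with a pseudocount of 3 or a minimum of 5, and with a pseudocount of 0.1, 1 relative was higher. No paired analysis was possible because each genotype has 1 library. Depth limits Dusp4, Dusp5 and Etv4 most.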

Other observations

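Neighbouring genes on the chromosome did not all share the direction of the member beside them. The nearest tested genes beside Spry4 were Ndfip1, 122 kb away, at 100 and 106 FPKM in the control and knockout pools, and the growth factor gene Fgf1, 237 kb away, at 71.7 and 43.1 FPKM. Beside Dusp6 these were Poc1b, 65.2 kb away, at 5.52 and 5.43 FPKM, and Kitl, 748 kb away, at 66.1 and 39.6 FPKM. Spred2 lay 39.7 kb from the actin regulator gene Actr2, at 69.7 and 85.7 FPKM, and 905 kb from the homeobox gene Meis1, at 13.4 and 8.35 FPKM. Tnks, 9.28 kb from Dusp4, had 4.69 and 4.02 FPKM. No record of another gene overlapped any of the 10 members.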
